A study of Mus musculus with 9 samples.

Results

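Lysosomal proteases were followed in the livers of mice given an agonist CD40 antibody. The genes were chosen by name from the deposited expression table and comprise 9 cathepsins (Ctsb, Ctsc, Ctsd, Ctse, Ctsh, Ctsk, Ctsl, Ctss, and Ctsz) and Lgmn, which encodes legumain. All 10 were found, among 24341 genes in all. Bulk liver of wild-type C57BL/6 mice was collected 48 hours after treatment, from 3 mice given the CD40 agonist FGK45 (mice 2, 5, and 9) and 6 control mice given PBS (mice 3, 4, 7, 8, 11, and 12). The groups share strain and genotype, the labels give no age, sex, or dose for these animals, and the study describes its mice in general as young adults matched by sex. Treated mice without a drop in blood B cells were left out by the study, so the anti-CD40 group was selected on that response. RNA was sequenced from the 3′ end with the QuantSeq method, and each value is an FPKM, a read number scaled to library size and divided by transcript length. Because 3′ reads do not increase with length, levels are compared here between mice and not between genes.

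Cathepsins are proteases that work mainly in the acid interior of lysosomes and endosomes. Most are made as inactive precursors and become active there when their propeptide is removed, and cystatins and stefins restrain those that escape. Ctsb, Ctsc, Ctsh, Ctsk, Ctsl, Ctss, and Ctsz encode cysteine proteases of the papain family, Ctsd and Ctse aspartic proteases, and Lgmn an asparagine-specific cysteine protease. In the liver they serve protein turnover in hepatocytes and, in macrophages and other antigen-presenting cells, the cutting of antigens and of the invariant chain of MHC class II.

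Of the 10 genes, 4 rose after anti-CD40 (Ctss, Ctsz, Ctsc, and Ctsb), 1 fell (Ctsh), and 5 were not called (Ctsl, Ctsk, Ctsd, Lgmn, and Ctse). Calls are from limma on log2(FPKM + 0.1), at a Benjamini-Hochberg adjusted p under 0.05 over all genes whose FPKM averaged 0.1 or more, a filter that all 10 passed. The same test called 45.1% of the 13807 genes, 23.5% as higher and 21.7% as lower, so 5 calls among 10 genes is close to the share of all genes. The median log2 fold change of the 10 genes was 0.47, beside 0.0056 for all genes tested. In 5 of them every anti-CD40 mouse was above every control mouse, and in 1, Ctsh, every one was below. Over all genes, 22.7% did not overlap in the upward and 19.6% in the downward direction, 42.4% in all.

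**Figure D1:**
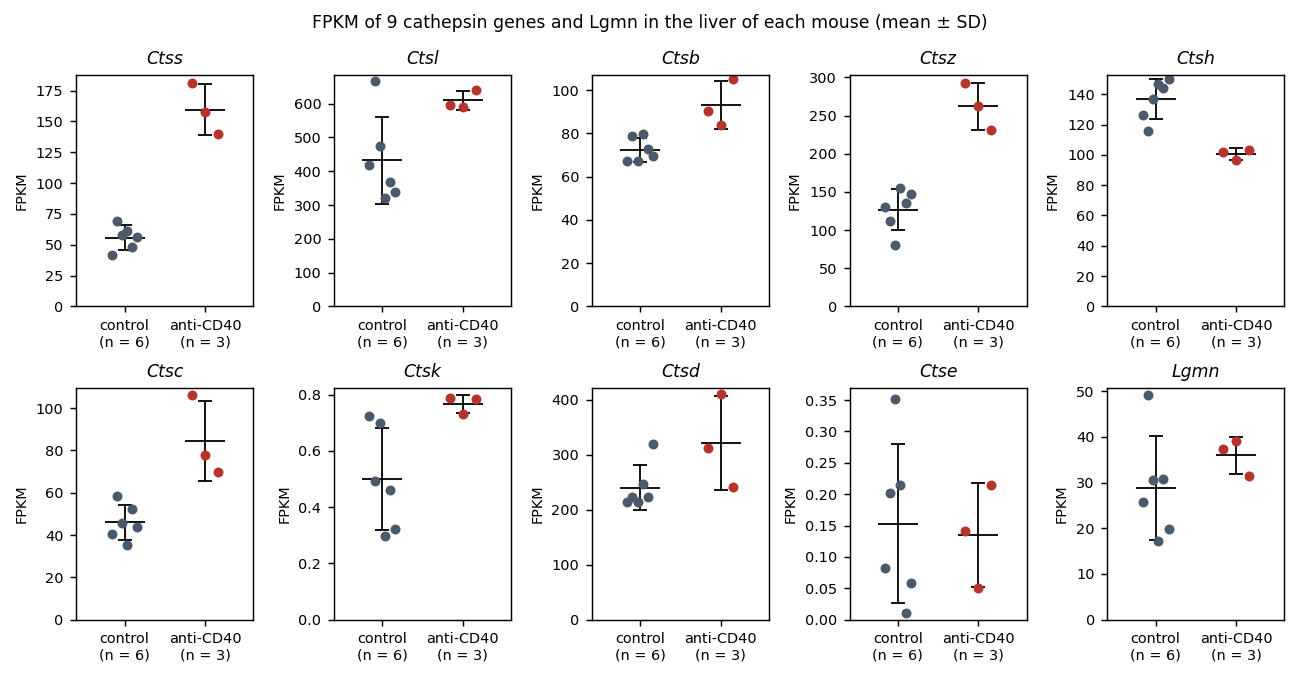
Deposited FPKM (vertical axes, each starting at 0) of the 10 genes in the liver of each mouse, with dark gray points for the 6 control mice, red points for the 3 anti-CD40 mice, and bars for the mean ± SD. The groups are apart for Ctss, Ctsz, Ctsc, Ctsb, Ctsk, and Ctsh, and they overlap for Ctsl, Ctsd, Ctse, and Lgmn.

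The number of genes above the lowest listed value (0.01) ran from 14684 to 15397 in control livers and from 15385 to 15545 in treated ones. The table gives no read totals, so depth is known only in relative terms: steps between low values put the worth of 1 read between 0.884 and 1.15 times the mean of the mice. Of 10 hepatocyte markers 9 were in the table and none was at the floor in every mouse. Their summed FPKM was 13426 to 25311 in control mice and 4463 to 5617 after anti-CD40. Fold changes depend on the scale chosen. With the acute-phase genes Saa1, Saa2, and Saa3 removed and the livers rescaled to the same total, the median gene stood at 0.35 on the log2 scale, and calls split into 5635 higher and 1647 lower (77.4% higher) in place of 52.0% higher. With quantile normalization, 46.4% of calls were higher and the median was -0.09.

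Of the 10 genes, Ctss changed most. Cathepsin S removes the last fragment of the invariant chain from MHC class II and stays active at neutral pH. The FPKM of Ctss was 181, 158, and 140 in treated livers 2, 5, and 9. In the control mice the lowest value was 41.4, the median 57.3, and the highest 69.6. All 3 treated livers were far above the highest control, mouse 4. The means were 159 ± 20.8 (SD, n = 3) and 55.8 ± 9.88 (SD, n = 6), which is 1.52 on the log2 scale (SE 0.16, limma adjusted p = 4.03e-05), or a 2.88-fold level with a 95% interval of 2.24 to 3.70. It was called under all 19 alternatives tried, with log2 fold changes from 1.43 to 1.90. Ctss lies on chromosome 3 of mm10, from 95526786 to 95556405, beside Ctsk.

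Ctsz encodes cathepsin X, which removes single residues from the carboxyl end of proteins. Its FPKM was 293, 262, and 231 in treated livers 2, 5, and 9, and ran from 80.7 over a median of 133 to 155 in control mice. Every treated liver was above every control. From 127 ± 27.1 (SD, n = 6) the mean rose to 262 ± 31.0 (SD, n = 3), up 1.07 on the log2 scale (SE 0.20, limma adjusted p = 0.00128), and it was called under all 19 alternatives. Ctsz lies on chromosome 2, from 174415804 to 174438992 in the table, an interval that also covers Nelfcd. In GENCODE M21 the 2 genes lie on opposite strands with their 3′ ends overlapping by 10 bases. Whether the counting used strand is not stated. Nelfcd was not called. Its FPKM averaged 15.2 ± 3.33 (SD, n = 6) in control livers and 10.3 ± 2.31 (SD, n = 3) in treated ones.

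Ctsc encodes cathepsin C, also called dipeptidyl peptidase I, which activates the serine proteases of neutrophil and lymphocyte granules. In treated livers 2, 5, and 9 its FPKM was 106, 77.8, and 70.0. Control mice ranged from 35.4 to 58.5, with a median of 44.9, below all 3 treated livers. The mean rose from 46.1 ± 8.27 (SD, n = 6) to 84.6 ± 19.0 (SD, n = 3), up 0.87 on the log2 scale (SE 0.18, limma adjusted p = 0.00264), and the call held under all 19 alternatives. Ctsc lies on chromosome 7, from 88278093 to 88310875.

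Ctsb encodes cathepsin B, an abundant lysosomal protease that cuts within proteins and also takes dipeptides from their carboxyl end. Its FPKM was 90.4, 83.8, and 105 in treated livers 2, 5, and 9, and from 67.0 to 79.6 with a median of 71.1 in control mice. The groups did not overlap, but the rise was small. On the log2 scale the difference was 0.36 (SE 0.11, limma adjusted p = 0.0216), from a mean of 72.4 ± 5.59 (SD, n = 6) to 93.2 ± 11.0 (SD, n = 3). Without anti-CD40 mouse 9 it was 0.27 (limma adjusted p = 0.117), and without mouse 2 it was 0.38 (limma adjusted p = 0.0564). Ctsb begins on chromosome 14 at 63122462, and the interval of the table runs to 63179578 across Fdft1. The exons of these genes, on opposite strands, share 774 bases at their 3′ ends in GENCODE M21. Fdft1, which encodes squalene synthase, fell from 21.5 ± 8.34 (SD, n = 6) to 6.74 ± 0.814 (SD, n = 3), or -1.59 as a log2 change (limma adjusted p = 6.92e-04), so the 2 genes moved in opposite directions.

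Ctsh was the exception among the called genes. It encodes cathepsin H, an aminopeptidase that trims proteins from their amino end. The FPKM was 102, 96.4, and 103 in treated livers 2, 5, and 9. In the control mice it was 116 at the lowest, 140 at the median, and 150 at the highest, and no treated liver reached the lowest control, mouse 4. On the log2 scale the difference was -0.44 (SE 0.11, limma adjusted p = 0.00775), from 137 ± 13.3 (SD, n = 6) to 101 ± 3.63 (SD, n = 3). This call depends on the scale of the table. It was lost with quantile normalization (log2 fold change -0.05, limma adjusted p = 0.670). It was also lost with Saa1, Saa2, and Saa3 left out and rescaling (-0.07, limma adjusted p = 0.549), a scale on which the median gene was at 0.35. Median of ratios scaling, which divides each liver by its median ratio to the geometric mean of the livers, kept the call (-0.43, limma adjusted p = 0.00835). Ctsh lies on chromosome 9, from 90054267 to 90076095.

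**Figure D2:**
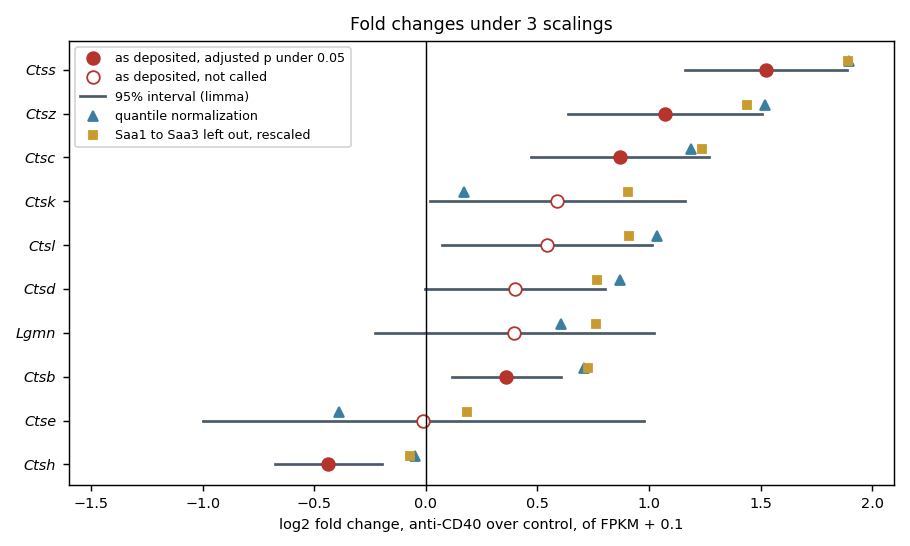
Log2 fold change of FPKM + 0.1, anti-CD40 over control, for each gene, with circles for the deposited scale (filled where the adjusted p from limma is under 0.05), lines for the 95% interval, and triangles and squares for 2 other scalings. Ctss, Ctsz, Ctsc, and Ctsb stay above 0 on each scale, whereas Ctsh moves from -0.44 to -0.05 and -0.07, and Ctse lies on either side of 0.

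Ctsl and Lgmn shared a feature, that control mouse 4 was above every treated liver. Ctsl encodes cathepsin L, a broad endopeptidase, and its FPKM was 597, 591, and 642 in treated livers 2, 5, and 9. The control mice ranged from 322 to 668 with a median of 394, and all except mouse 4 were below the treated livers. On the log2 scale the difference was 0.54 (SE 0.21, 95% interval 0.075 to 1.01, limma adjusted p = 0.0579) and it was not called. Without control mouse 4 it was 0.68 (limma adjusted p = 0.00284). Ctsl also passed the threshold with array weights (0.59, limma adjusted p = 0.00681), with quantile normalization (1.04), and with the Saa genes left out (0.91). With median of ratios scaling it was 0.55 and was not called (limma adjusted p = 0.0561). With the Saa genes left out the median gene was itself at 0.35. The gene lies on chromosome 13, from 64363214 to 64370306.

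Lgmn, whose product cuts after asparagine and helps process other lysosomal proteases, had an FPKM of 37.4, 39.1, and 31.4 in treated livers 2, 5, and 9. The control mice ran from 17.1 over a median of 28.1 to 49.1 in mouse 4, and their spread was 39.4% of their mean. The log2 fold change of 0.40 had a 95% interval from -0.23 to 1.02 (limma adjusted p = 0.279). The interval covers 0 and also a log2 change of 1. Without control mouse 4 it was 0.57 (limma adjusted p = 0.0438), the only one of 19 alternatives that called it. Control mouse 4 also had the highest summed FPKM of erythroid markers (50531, against 7494 to 13469 in the other controls), B cell markers (7.38, against 1.67 to 3.78), and neutrophil markers (157, against 19.2 to 83.8). Mouse 4 was also the highest control for the dendritic cell, NK cell, stellate and fibroblast, and cholangiocyte lists. Its summed FPKM of hepatocyte markers, 13426, was the lowest of the controls. The part of these cells in its Ctsl and Lgmn values was not tested. Lgmn lies on chromosome 12, from 102394098 to 102439697.

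The aspartic protease gene Ctsd encodes cathepsin D, a main endopeptidase of the lysosome. It had an FPKM of 313, 411, and 242 in treated livers 2, 5, and 9. Control values ran from 214 over a median of 224 to 319 in mouse 12, which was above 2 of the 3 treated livers. On the log2 scale the difference was 0.40 (SE 0.18, 95% interval -0.0016 to 0.81, limma adjusted p = 0.0967). It was not called, but it passed the threshold without anti-CD40 mouse 9 (0.59, limma adjusted p = 0.0312) and without control mouse 12 (0.49, limma adjusted p = 0.0337). Without anti-CD40 mouse 5 it was 0.21 (limma adjusted p = 0.404). Quantile normalization gave 0.87 and leaving out the Saa genes 0.77, and Ctsd was called under both, although the median gene was at 0.35 on the latter scale. Mouse 5, with the highest Ctsd, also had a summed FPKM of 1351 for 12 pancreatic acinar markers, against 28.2 and 34.5 in mice 2 and 9 and 71.2 to 190 in control mice, and the part of this in its Ctsd value was not tested. Ctsd lies on chromosome 7, from 142375916 to 142387870.

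Ctsk and Ctse rest on few reads. Ctsk, whose product degrades collagen in osteoclasts and fibroblasts, had an FPKM of 0.786, 0.731, and 0.785 in treated livers 2, 5, and 9, and from 0.298 to 0.722 with a median of 0.477 in control mice. The groups did not overlap (exact permutation p = 0.0238), although the gap was narrow. Its log2 fold change of 0.59 (SE 0.26, 95% interval 0.018 to 1.16) was not called (limma adjusted p = 0.0867). It was called without control mouse 3 (0.69, limma adjusted p = 0.0485) and with the Saa genes left out (0.90, limma adjusted p = 0.0177), where the median gene was at 0.35. With quantile normalization Ctsk was at 0.17. The smallest whole reads that fit these values are 24, 21, and 21 in the treated livers and 7 to 20 in the controls. Ctsk lies on chromosome 3, from 95499210 to 95509387. Among stellate cell and fibroblast markers, 4 of 9 rose and 2 fell, beside 23.5% higher and 21.7% lower over all genes tested.

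Ctse encodes cathepsin E, an aspartic protease of endosomes known from gastric epithelium and immune cells. It had an FPKM of 0.141, 0.0501, and 0.215 in treated livers 2, 5, and 9, inside the control range of 0.01 to 0.352 (median 0.142). These values rest on 6, 2, and 8 reads, and on 0 to 14 reads in each control. The log2 fold change was -0.01 (limma adjusted p = 0.988). Its 95% interval reached 0.98 upward and about as far downward for FPKM + 0.1, which at these levels stands for a wider range in FPKM itself, so even a large change was not detectable at this depth. Ctse lies on chromosome 1, from 131638314 to 131675507.

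Because the scale of the livers could move every fold change, each gene was also set against Ctsb within the same liver, a ratio of FPKM + 0.1 that a single scaling factor per library leaves nearly unchanged. The log2 ratio of Ctss to Ctsb was 1.001, 0.91, and 0.40 in treated livers 2, 5, and 9, and between -0.69 and -0.18 in control mice, a difference of 1.16. For Ctsz it was 1.70, 1.64, and 1.13 against 0.27 to 1.09, a difference of 0.71. For Ctsh it was 0.18, 0.20, and -0.03 against 0.56 to 1.11, a difference of -0.80. In these 3 ratios the groups did not overlap, and each had the smallest p that the 84 splits of the mice allow (2-sided exact permutation p = 0.0238). None of the 9 ratios passed after adjustment over them (adjusted p = 0.0714 from the exact permutation test for these 3).

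The other ratios overlapped between groups. Ctsc differed by 0.51 (exact permutation p = 0.0952), while Ctsl differed by 0.18, Ctsk by 0.23, Ctsd by 0.04, and Lgmn by 0.04, each less than the SD of the control mice. Ctse had a difference of -0.37, also within that spread. Ctsb is no fixed reference, since it rose itself (0.36) and its 3′ end overlaps that of Fdft1, so each ratio holds the change of Ctsb as well. With quantile normalization Ctsb was at 0.71 and Ctsh at -0.05, so on that scale most of the Ctsh ratio is the rise of Ctsb.

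**Figure D3:**
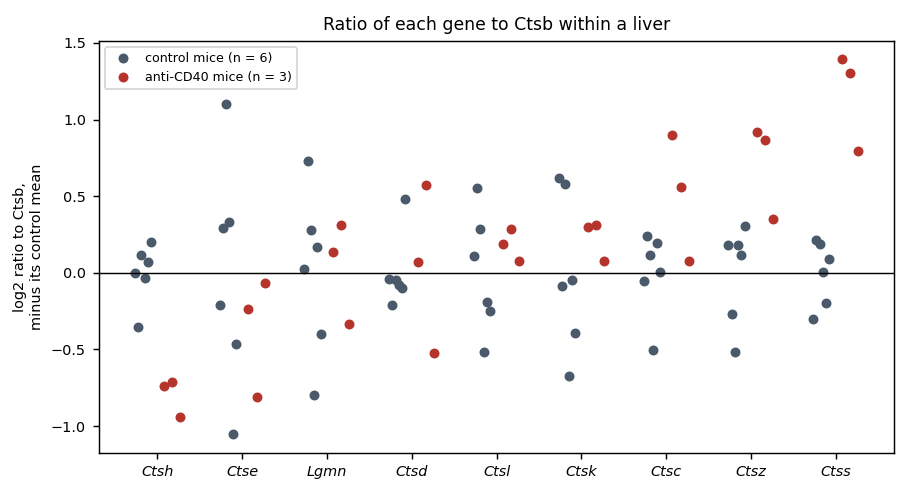
Log2 ratio of the FPKM + 0.1 of each gene to that of Ctsb in the same liver, minus the mean of the control mice (vertical axis), with dark gray points for 6 control mice and red points for 3 anti-CD40 mice. Every red point lies below the gray points for Ctsh and above them for Ctsz and Ctss.

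Promoter sequences for 7 of the 10 genes were read from RefSeq (GRCm38.p6, the assembly of mm10), 300 bases around each start site, and 8 start sites in all since Lgmn has 2. Letters of 3 elements are described, searched on both strands. They were CACGTG, TCACGTGA (which holds CACGTG and forms the center of the lysosomal CLEAR element), and GAAANNGAA (part of the interferon response element). Ctss and Ctsd are shown because Ctss rose most and Ctsd held the CLEAR letters. The 250 bases before each start site follow, 5′ to 3′ on the strand of the gene, with matches in capitals.
Ctss, chr3:95526536-95526785, plus strand: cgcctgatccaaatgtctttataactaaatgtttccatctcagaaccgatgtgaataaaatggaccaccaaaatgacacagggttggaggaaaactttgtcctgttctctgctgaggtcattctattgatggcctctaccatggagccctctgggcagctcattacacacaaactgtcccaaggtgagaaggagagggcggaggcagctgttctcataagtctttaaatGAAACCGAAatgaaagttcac
Ctsd, chr7:142387828-142388077, minus strand: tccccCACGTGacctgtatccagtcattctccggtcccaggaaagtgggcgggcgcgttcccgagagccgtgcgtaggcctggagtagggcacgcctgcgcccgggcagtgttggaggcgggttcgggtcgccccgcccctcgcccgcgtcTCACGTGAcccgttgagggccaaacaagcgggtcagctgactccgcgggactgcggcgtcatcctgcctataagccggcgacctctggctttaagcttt

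In Ctss the run GAAACCGAA begins 21 bases before the start site, and GAAANNGAA was present in 8.56% of the 32851 promoters of the table. Ctsd, which was not called, holds CACGTG at 2 places, and the copy 98 bases before its start site lies within TCACGTGA, found in 0.974% of promoters. Ctsl and 1 of the promoters of Lgmn hold CACGTG alone, present in 7.15% of promoters. That Lgmn window (102439093 to 102439342) lies inside the interval of the gene, and the window at the outer start site (102439729 to 102439978) had no match. The Ctsl window (64370521 to 64370770) lies inside the GENCODE M21 gene, whose outer end is at 64370890. Ctsz and Ctsk had none of these letters in this window. A match is a description of the sequence, and binding was not measured.

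Other cathepsins, outside the 10, moved in both directions. Ctsf, a further cysteine cathepsin, fell from 10.5 ± 1.96 (SD, n = 6) to 3.39 ± 0.249 (SD, n = 3), or -1.58 as a log2 change (limma adjusted p = 3.06e-05). Ctsw, which is expressed by NK and cytotoxic T cells, rose by 1.44 on the log2 scale, from 0.554 ± 0.151 (SD, n = 6) to 1.67 ± 0.422 (SD, n = 3). Ctsg, a serine protease of neutrophil granules, had an FPKM of 0.397, 0.241, and 0.194 in mice 2, 5, and 9 and was at the floor of 0.01 in 4 of 6 control mice (limma adjusted p = 0.00308). It passed the filter only through the treated mice, which largely fixed its direction. Ctsa and Ctso were not called, with log2 fold changes of 0.03 and 0.04. Among 9 placental cathepsins, close relatives of Ctsl on the same chromosome, 8 were at the floor in all mice and Ctsj reached a mean of 0.0325 after anti-CD40.

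The inhibitors went both ways. Of the 12 tested of 16 listed inhibitors, 7 were higher and 2 lower, with a median log2 fold change of 2.24. Among the 7, Stfa1, Stfa2, Stfa2l1, Stfa3, and BC100530 had control means of 0.01 to 0.0860 FPKM. They passed the filter of 0.1 only through the treated mice, which largely fixed their direction, so the count and median lean upward. The summed FPKM of the listed inhibitors overlapped, at 2247 to 2299 after anti-CD40 and 1941 to 3059 in control mice. Cstb, which encodes stefin B, an inhibitor inside the cell, had an FPKM of 778, 749, and 720 in mice 2, 5, and 9 and 254 to 351 in control mice, which is 1.37 higher on the log2 scale (limma adjusted p = 1.70e-05). Cst7 encodes cystatin F, an inhibitor of immune cells that acts on cathepsin C among others, and it rose from 0.546 ± 0.152 (SD, n = 6) to 26.0 ± 5.53 (SD, n = 3), which is 5.35 on the log2 scale (limma adjusted p = 1.50e-07). The stefin A gene Stfa3 was at the floor in all control mice and had an FPKM of 4.63, 3.98, and 2.51 in mice 2, 5, and 9. Its relatives Stfa2l1 (4.72) and BC100530 (3.61) also rose. Stefin A genes are close paralogs, and reads may be split among them. Cst3, which encodes the secreted inhibitor cystatin C, was not called (log2 fold change -0.33, 95% interval -0.66 to 0.0044). The inhibitors that fell were Serpinb1a (-0.99), which acts on granule serine proteases, and the kininogen gene Kng1 (-0.62).

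Genes of the processes that these proteases serve were also examined. All 9 genes tested of the MHC class II list rose, with a median log2 fold change of 2.44, led by the invariant chain gene Cd74, from 12.0 ± 2.55 (SD, n = 6) to 107 ± 6.95 (SD, n = 3), and the class II genes H2-Oa (3.16), H2-Eb1 (2.85), and H2-Aa (2.81). Of the 5 tested of 7 granule proteases that cathepsin C activates, 4 rose, with a median of 2.69, including Gzma, which encodes granzyme A, with an FPKM of 57.7, 79.6, and 79.5 in mice 2, 5, and 9 and 1.58 to 10.1 in control mice. The other called genes were Gzmb (3.23), Prtn3 (2.69), and Ctsg (1.47). Ctsg averaged 0.0386 FPKM in control mice and passed the filter only through the treated mice, whereas Elane and Gzmk were too low to be tested. The count and median of this list therefore lean upward. Of the endosomal Toll-like receptor genes, Tlr7 (1.47) and Tlr3 (0.79) rose, as did Unc93b1 (0.39), which encodes the chaperone that carries these receptors to endosomes, and Tlr8 and Tlr9 were too low to be tested. Log2 changes of Cd74, Cst7, and Gzma were larger than those of Ctss and Ctsc in the same livers, a difference that was not tested.

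Other genes of the lysosome moved in both directions. Counts in these lists and those above stand beside 45.1% called over all genes tested, 23.5% higher and 21.7% lower. Of 34 other lysosomal hydrolases, 10 rose and 3 fell, with a median log2 fold change of 0.08. The largest rises were in Prcp (1.53), Arsa (1.20), Gla (1.03), and Gusb (0.996), and the largest fall was in Lipa (-0.77), which encodes lysosomal acid lipase. In the list of membrane proteins and cofactors, 7 of 18 rose and 3 fell, with a median of -0.02, and Cd63 (3.66), Ifi30 (2.32), Cd68 (1.71), and Laptm5 (1.05) led it. Ifi30 encodes the thiol reductase of antigen processing. In the vacuolar proton pump, which acidifies the lysosome, 6 of 16 genes tested rose, Tcirg1 the most (0.91), and 1, Atp6v0d2, fell (-2.31).

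Of the sorting genes 4 of 8 rose, among them Gnptab (1.08), which encodes a subunit of the enzyme that makes the mannose 6-phosphate tag, and 1 fell (Gnptg, -0.63). Of the 4 factors that regulate lysosomal genes, Tfec (0.80), Mitf (0.57), and Tfe3 (0.53) rose, and Tfeb was not called (-0.07). These counts depend on scale. With the Saa genes left out, 18 hydrolases and 11 pump genes rose, on a scale where the median gene was at 0.35. With quantile normalization 7 hydrolases fell and 12 pump genes rose.

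**Figure D4:**
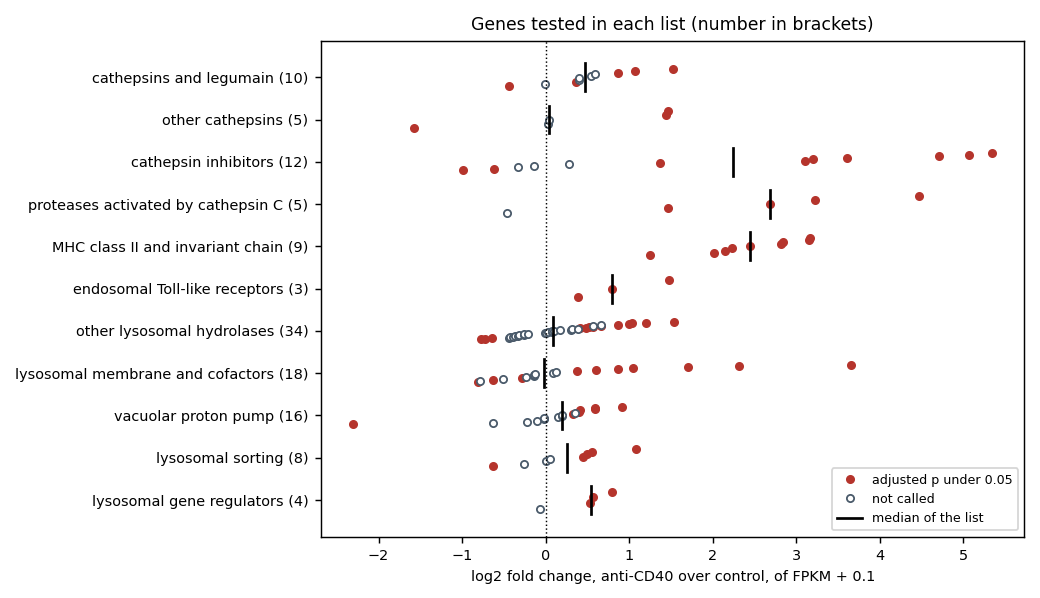
Log2 fold change of FPKM + 0.1, anti-CD40 over control (horizontal axis), for each gene tested in each list (rows, number of genes in brackets), with red points for an adjusted p under 0.05 from limma, open points for genes not called, and black bars for the median. The medians of the MHC class II (2.44), cathepsin inhibitor (2.24), and cathepsin C substrate (2.69) lists lie to the right of that of the cathepsins and legumain (0.47), and those of other hydrolases (0.08) and membrane proteins (-0.02) to its left. The inhibitor and cathepsin C substrate lists include genes that passed the filter only through the treated mice, which raises their medians.

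Markers of the cells that carry these proteases changed at the same time, and in bulk liver the number of cells of a type and the RNA in each cannot be told apart. All 8 Kupffer cell markers fell, with a summed FPKM of 135 to 149 after anti-CD40 and 448 to 637 in control mice, and Clec4f was at the floor in mouse 2. Of 11 monocyte and macrophage markers 8 rose and Adgre1 fell, and the sum went from 42.3 to 77.1 in control mice to 342 to 471. All 9 neutrophil markers tested rose (4231 to 5221, against 19.2 to 157 in control mice), as did all 6 B cell markers tested (31.3 to 46.5, against 1.67 to 7.38) and 6 of 7 dendritic cell markers tested (15.5 to 18.1, against 2.76 to 4.48). Among the neutrophil markers, Cxcr2, Mmp8, and Ngp averaged 0.0556, 0.0323, and 0.0902 FPKM in control mice. Chil3, among the monocyte and macrophage markers that rose, averaged 0.0879 FPKM in them. All of these genes passed the filter only through the treated mice, which largely fixed their direction. Most of the neutrophil sum was S100a8 and S100a9, with means of 3316 and 1437 after anti-CD40. Of the hepatocyte markers 7 of 9 fell and Apob rose. Over all genes tested, 23.5% were called higher and 21.7% lower. The part of each cell type in the changes of Ctss, Ctsz, Ctsc, Ctsb, and Ctsh was not tested.

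Genes with the profile most like that of Ctss over the 9 mice were Ctps (Pearson r = 0.998), Twf2 (0.997), and Ms4a4c (0.996) among 13797 genes, of which 736 had an r over 0.95. For Ctsh they were Dbi (0.996), Setd6 (0.995), and Rnf144b (0.990), of 241 over 0.95. These are descriptions over 9 points that share the same libraries and the same pair of groups.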

How the data were processed

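Mouse liver RNA was made into QuantSeq 3′ libraries. The authors aligned reads to mm10 with STAR and ran Cufflinks and CuffDiff, and deposited 1 FPKM per gene and mouse, with a floor of 0.01. The annotation, the filter behind the table, and the use of strand are not given in the sources used here. Samples were grouped by their labels. Of 24341 genes, 15 had a failed estimate in some mouse and were dropped, so 24326 remained. Values were used on the scale of the table. Values were tested as log2(FPKM + 0.1), which understates changes of low genes, for genes averaging 0.1 FPKM or more, by the moderated, 2-sided test of limma (3.58.1, trended prior; R 4.3.3), which had treatment as its factor. Some listed genes passed the filter on the mean only through the treated mice, which largely fixed their direction. Each library is from 1 mouse. The p-values from limma weigh the group difference against the spread between mice, moderated by a trend over all genes tested. Ratios and single values were compared by exact permutation, 2-sided, over the 84 splits, which give no p below 0.0238. Intervals are limma's 95% intervals.

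Whole reads for Ctse and Ctsk are the smallest that fit the steps between low values (within 0.1 read). Of 3052 low genes, 83.4% came out whole in every mouse. The limma fit and the read steps were tested on simulated data, and the alternatives tried are given in the closing section. Starts in the table were counted from 1. The 10 genes and all lists were chosen with earlier results of these data known. Named genes are the 10, the other cathepsins, up to 4 called genes with the largest changes in each list, and the 3 genes most like the largest called rise and fall. Genes outside this rule (Cstb, Cst3, Stfa1, Stfa2, Serpinb1a, Kng1, Elane, Gzmk, Lipa, Tfeb, individual marker genes, and the overlapping genes Fdft1 and Nelfcd) were named after their values were seen. Python 3.11.15 with pandas 2.3.3 and scipy 1.17.1 did the other steps. Protein sequences were not used here, and the matches to a further promoter element are not reported here.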

Additional observations from a re-analysis of the deposited data

Results flagged for a closer look

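In 33 sets of values over the 6 control mice (the 10 genes, the 9 ratios, and the summed marker lists), each extreme mouse's distance from its neighbor was divided by the whole range and held against Dixon's 95% critical value. Chance flags about 1.65 of 33, and 5 were above it. For Ctsd, control mouse 12 stood apart (0.681), with an FPKM of 319 against 248 in the next mouse, and likewise for the log2 ratio of Ctsd to Ctsb (0.752), at 2.20 against 1.68. Without this mouse the log2 fold change of Ctsd was 0.49 (limma adjusted p = 0.0337) in place of 0.40 (limma adjusted p = 0.0967). The other 3 were marker lists. Control mouse 4 was highest in erythroid markers (0.861, a summed FPKM of 50531 against 13469) and B cell markers (0.630, 7.38 against 3.78), and control mouse 7 in pancreatic acinar markers (0.661, 190 against 112). The Ctsl and Lgmn values that change without mouse 4 are given above with and without it.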

How the results depend on the processing

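No paired analysis was possible because the groups share no mouse numbers. Over 10 other scalings, filters, and models and 9 omissions of a single mouse, no called gene changed direction, and Ctss, Ctsz, and Ctsc were called under each. With quantile normalization Ctsd (0.87) and Ctsl (1.04) gained a call and Ctsh (-0.049) lost it. With Saa1, Saa2, and Saa3 left out and rescaling, Ctsd (0.77), Ctsk (0.90), and Ctsl (0.91) gained it and Ctsh (-0.071) lost it. Array weights added Ctsl (0.59). Of the 10 genes, 4 were higher and 1 lower as deposited, and the same numbers were called with median of ratios scaling. The number lower was 0 with quantile normalization, 7 were higher and 0 lower with the Saa genes left out, and 2 were higher and 0 lower when a 2-fold change was also required. Over all genes, 5635 were higher and 1647 lower with the Saa genes left out, and the median gene was at 0.35. With quantile normalization 2990 were higher and 3456 lower, and the median gene was at -0.09. Why calls were gained or lost was not tested. For the 2-fold rule no share over all genes was taken.

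With each mouse left out in turn, log2 fold changes ran from 0.27 to 0.43 for Ctsb, 0.21 to 0.59 for Ctsd, 0.48 to 0.69 for Ctsk, 0.47 to 0.68 for Ctsl, and 0.26 to 0.57 for Lgmn, and 3 to 6 genes were higher and 1 lower. The ratio of Ctsd to Ctsb ran from -0.22 to 0.32. Without an anti-CD40 mouse no ratio can reach the threshold, since 28 splits give no p below 0.0714.

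In the lists, quantile normalization gave 1 inhibitor lower, 7 hydrolases lower, 12 pump genes higher, 2 sorting genes higher, and 1 regulator higher. Leaving out the Saa genes gave 0 inhibitors lower, 18 hydrolases higher and 1 lower, 1 membrane gene lower, 11 pump genes higher, and 0 sorting genes lower. The cause of these shifts was not tested. Depth limits Ctse and Ctsk, which give no value when a mean FPKM of 1 or more is required.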

Other observations

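Marker lists of other cell types gave these values. Of T cell markers 5 of 6 tested were higher, and all 5 tested NK cell markers. Sinusoidal endothelial markers gave 3 higher and 3 lower of 8, cholangiocyte markers 2 higher of 5 tested (Sox9 and Spp1), and proliferation markers 5 higher of 5. None of the 5 erythroid markers tested was called, and 1 of 11 pancreatic acinar markers was (Cpb1), for which mouse 5 had an FPKM of 178 and mice 2 and 9 had 0.350 and 1.28. Calls are at an adjusted p under 0.05 from limma. These counts stand beside 45.1% called over all genes tested, 23.5% higher and 21.7% lower.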
